A study of Sus scrofa with 150 samples.

Results

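The urea cycle enzymes of pig liver were followed through 150 livers, 1 array for each pig. The rule sought probe sets annotated with 6 gene symbols, NAGS, CPS1, OTC, ASS1, ASL and ARG1, and found 5 genes with 1 probe set each, of 23999 probe sets and 6765 named genes in all. NAGS is not analysed here. All pigs belonged to a commercial cross labelled Pix(DLxDE), the liver was collected at slaughter at a mean end weight of 110 kg, and the labels form 1 group with no treatment and no control. For each pig the labels give the area of fat over the long back muscle, with a mean of 15.2 cm2 (SD 3.25, n = 150) and a range from 8.1 to 26.7 cm2. They also give the drip loss, the share of its weight that a piece of that muscle loses on hanging, with a mean of 5.54% (SD 2.12, n = 150) and a range from 1.45 to 10.82%. Sex, age, family and slaughter day are not stated in the labels, so relatives among the pigs were treated as independent animals.

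The urea cycle turns ammonia from amino acid breakdown into urea and runs as a complete pathway chiefly in hepatocytes of the periportal zone. NAGS makes N-acetylglutamate, the activator of CPS1, and CPS1 and OTC then form carbamoyl phosphate and citrulline inside mitochondria. In the cytosol ASS1 joins citrulline with aspartate, ASL splits the product into arginine and fumarate, and ARG1 splits arginine into urea and ornithine. In mammals fasting, a high protein intake, glucagon and glucocorticoids raise the transcripts of these enzymes.

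The deposited table holds log2 signals whose lowest value was 4.09 on every array, and array medians ran from 5.79 to 6.09. An array was counted as standing apart when its median correlation with the others lay over 3 scaled median absolute deviations below the median, and 13 arrays did. The liver label fitted its markers. Of 12 hepatocyte markers 11 were measured, and albumin (ALB) ran from 13.69 to 14.11 on the log2 scale with a median of 13.93. The small intestine also makes CPS1 and OTC. In these livers the enterocyte marker FABP2 ran from 4.09 to 5.12 with a median of 4.57, close to the lowest value, while villin (VIL1) ran from 7.53 to 10.32. With APOA4, 3 enterocyte markers were measured, and their mean signal ran from 6.77 to 9.34 with a median of 8.51, far above the lowest value. A part of intestinal cells in the signals was not tested. In bulk liver RNA, fewer hepatocytes and less RNA per hepatocyte cannot be told apart.

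All 5 enzymes gave signals far above the lowest value in all 150 livers, and OTC was the most spread of the 5. Carbamoyl-phosphate synthase, CPS1, had a lowest signal of 11.63, a median of 12.42 and a highest of 13.09 on the log2 scale (SD 0.31, n = 150). Ornithine transcarbamylase, OTC, ran from 8.69 through a median of 10.53 to 11.44 (SD 0.49, n = 150), a 6.73-fold difference between the extreme livers and 2.13-fold between the 90th and 10th percentiles. The OTC values had a long lower tail, and the lowest liver was 1 of the 13 arrays that stood apart. The lowest OTC signal outside those arrays was 8.99.

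Argininosuccinate synthase, ASS1, ran from 12.19 through a median of 13.18 to 13.63 (SD 0.26, n = 150), the smallest SD of the 5. Argininosuccinate lyase, ASL, ran from 9.34 through a median of 10.34 to 11.70 (SD 0.39, n = 150), a 5.13-fold difference between the extreme livers and 1.90-fold between the 90th and 10th percentiles. Liver 68 was the highest for both ASS1 and ASL, and liver 70 was the lowest for both CPS1 and OTC. Arginase 1, ARG1, ran from 11.42 through a median of 12.43 to 13.09 (SD 0.35, n = 150). By SD, OTC lay at percentile 90.9 of all probe sets and ASL at 80.9, followed by ARG1 at 74.9, CPS1 at 66.9 and ASS1 at 51.2. The spread is of signals from single probe sets, so levels of different enzymes were not set against each other.

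**Figure D1:**
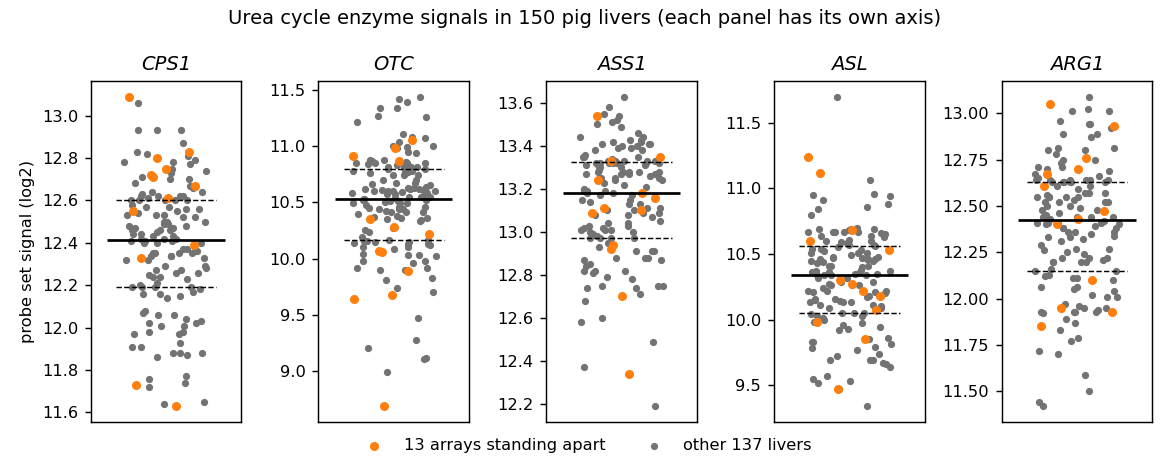
Log2 signal of each urea cycle probe set in 150 livers, 1 point per liver, with the median as a solid line and the quartiles as dashed lines. Each panel has its own vertical axis and the sideways position is only jitter. Orange points are the 13 arrays that stand apart, which include the lowest OTC value of 8.69 and the lowest CPS1 value of 11.63.

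The arrays that stood apart lay within the range of the others for ASS1, ASL and ARG1. In those 13 arrays OTC averaged 10.21 (SD 0.67), against 10.49 (SD 0.46) in the other livers, and CPS1 averaged 12.52 (SD 0.42), against 12.37 (SD 0.30). For ASS1 the values were 13.08 (SD 0.31) and 13.14 (SD 0.26), for ASL 10.35 (SD 0.49) and 10.29 (SD 0.38), and for ARG1 12.45 (SD 0.39) and 12.38 (SD 0.35). These differences were smaller than the SD of either set of arrays.

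The first question was whether the enzymes of the cycle went up and down together from liver to liver. They did in part: ARG1, CPS1 and ASS1 followed each other, ASS1 followed ASL, and CPS1 followed OTC, while OTC and ASL ran in opposite directions. Of 10 pairs 9 had a positive Pearson r, and 7 were called at an adjusted p under 0.05. A pair counted as called when limma, run over all probe sets with either enzyme as the x value, passed in both directions, and the larger adjusted p is given. With a single enzyme as the x value, the share of all probe sets called ran from 9.05% for ARG1 to 45.5% for OTC and 53% for CPS1. Permutation tests used 100000 resamples, so 1e-05 is the smallest p they can give.

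CPS1 and ARG1, the entry and the last step of the cycle, had the highest r. It was 0.521 (permutation p = 1e-05, n = 150), with a rho of 0.484 (permutation p = 1e-05), an adjusted p of 1.23e-08 by limma, and 0.505 without the 2 livers of most extreme CPS1. CPS1 and OTC, the 2 mitochondrial steps, had an r of 0.481 (permutation p = 1e-05) and a rho of 0.436 (permutation p = 1e-05), with an adjusted p of 5.62e-09 by limma and an r of 0.445 without 2 livers. CPS1 and ASS1 had an r of 0.403 (permutation p = 1e-05) and a rho of 0.371 (permutation p = 1e-05), with an adjusted p of 3.01e-05 by limma and 0.361 without 2 livers. CPS1 thus went with 3 of the other 4 transcripts, with wide scatter around each relation, where 53% of all probe sets were called with CPS1.

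Within the cytosolic steps, ASS1 and ARG1 had an r of 0.356 (permutation p = 3e-05) and a rho of 0.346 (permutation p = 5e-05), with an adjusted p of 0.000653 by limma and 0.376 without 2 livers. ASS1 and ASL, which act one after the other, had an r of 0.308 (permutation p = 0.00011) and a rho of 0.283 (permutation p = 0.0004), with an adjusted p of 0.00261 by limma and 0.313 without 2 livers. ASL and ARG1 were near the threshold, with an r of 0.234 (permutation p = 0.00349) and a rho of 0.195 (permutation p = 0.0171). The adjusted p was 0.0432 by limma. It was 0.0922 when each fit left out the 2 livers most extreme for the enzyme used as its x value. Without the 2 livers of most extreme ASL r was 0.174.

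OTC and ASL were the pair with a negative r, -0.245 (permutation p = 0.00267), with a rho of -0.228 (permutation p = 0.00523), an adjusted p of 0.0165 by limma and an r of -0.272 without 2 livers. The other 3 pairs were not called. For OTC and ASS1 r was 0.135 (permutation p = 0.0998; rho 0.104, permutation p = 0.205; adjusted p = 0.277), for OTC and ARG1 0.0875 (permutation p = 0.287; rho 0.0334, permutation p = 0.685; adjusted p = 0.568) and for CPS1 and ASL 0.0791 (permutation p = 0.335; rho 0.015, permutation p = 0.853; adjusted p = 0.528). Without 2 livers r was 0.0703, 0.0386 and 0.0756 for these 3 pairs. The 95% interval of the last ran from -0.0822 to 0.236.

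**Figure D2:**
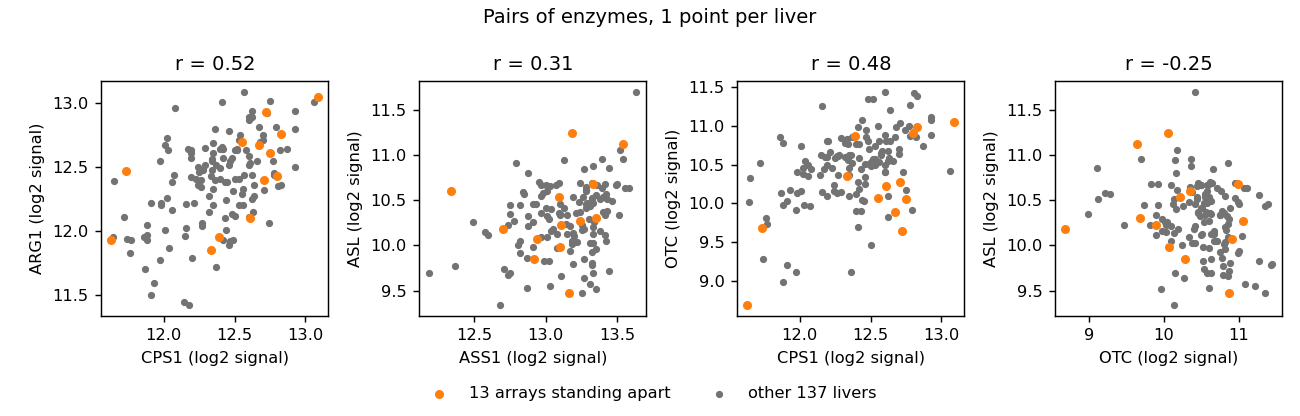
Log2 signals of 4 pairs of enzymes, 1 point per liver, with the 13 arrays that stand apart in orange. ARG1 with CPS1, ASL with ASS1 and OTC with CPS1 slope upward (r 0.52, 0.31 and 0.48), and ASL with OTC slopes downward (r -0.25).

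The labels name no array batch, so the number in the titles, whose meaning is not given, was used to form 10 blocks of 100 numbers, with 6 to 24 livers each. With the block means removed r was 0.53 for CPS1 and ARG1, 0.452 for CPS1 and OTC, 0.342 for CPS1 and ASS1, 0.385 for ASS1 and ASL, 0.321 for ASS1 and ARG1 and 0.263 for ASL and ARG1. For OTC and ASL it was -0.232, and r was negative in 8 of the 10 blocks. CPS1 and ARG1, CPS1 and ASS1, and ASS1 and ASL were positive in 9 of the 10 blocks, and CPS1 and OTC and ASS1 and ARG1 in 8. ASL and ARG1 were positive in 7. Single blocks varied widely, for CPS1 and ARG1 from -0.462 to 0.933.

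Over the 5 enzymes, the first principal component held 41.7% of their variance, and all enzymes had the same sign in it, with loadings of 0.59 for CPS1, 0.52 for ARG1, 0.49 for ASS1, 0.31 for OTC and 0.22 for ASL. The second held 27.3% and set OTC (0.65) against ASL (-0.67). Of the 150 livers 11 had all 5 signals above their own medians and 9 had none above it.

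Relations of this size were common for CPS1 and OTC and less so for the others. At the same threshold 53% of 23998 probe sets were called with the CPS1 level, 45.5% with OTC, 21.7% with ASL, 13.6% with ASS1 and 9.05% with ARG1. Seen from CPS1, 6.12% of probe sets had a larger absolute r than ARG1. Seen from ARG1, 0.0417% had a larger one than CPS1, which ranked 11 by p. For the pair of CPS1 and OTC the shares were 9.58% seen from CPS1 and 6.03% seen from OTC. For ASS1 and ASL they were 4.25% seen from ASS1 and 5.16% seen from ASL. For OTC and ASL, the pair with a negative r, they were 33.5% seen from OTC and 13.3% seen from ASL. For CPS1 and ASS1 they were 18.3% seen from CPS1 and 0.842% seen from ASS1. ASL and ARG1 had 15.4% seen from ASL and 8.27% seen from ARG1, and ASS1 and ARG1 had 2.01% and 1.05% in the order named.

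Array measures moved with some of the enzymes, and their part in the pairs was tested only as far as the fits below. The array median went with CPS1 (r = 0.607, permutation p = 1e-05; rho 0.597, permutation p = 1e-05; r = 0.585 without 2 livers) and with OTC (r = 0.371, permutation p = 1e-05; rho 0.383, permutation p = 1e-05; r = 0.359 without 2). It went against ASL (r = -0.318, permutation p = 6e-05; rho -0.351, permutation p = 3e-05; r = -0.316 without 2). The 3 prime minus 5 prime difference of the GAPDH control, a sign of RNA integrity, went with CPS1 (r = 0.304, permutation p = 0.00018; rho 0.364, permutation p = 1e-05; r = 0.319 without 2) and against ASS1 (r = -0.288, permutation p = 0.00045; rho -0.298, permutation p = 0.00029; r = -0.243 without 2). The title number went against CPS1 (r = -0.279, permutation p = 0.0005; rho -0.252, permutation p = 0.00212; r = -0.267 without 2) and ASS1 (r = -0.273, permutation p = 0.00071; rho -0.189, permutation p = 0.0202; r = -0.218 without 2). The mean of the hepatocyte markers went with ASS1 (r = 0.375, permutation p = 1e-05; rho 0.357, permutation p = 4e-05; r = 0.341 without 2). It went with CPS1 (r = 0.255, permutation p = 0.00172; rho 0.203, permutation p = 0.0124; r = 0.213 without 2) and OTC (r = 0.252, permutation p = 0.00154; rho 0.182, permutation p = 0.0261; r = 0.189 without 2) as well. Weaker relations were those of ASS1 with the actin difference (r = -0.216, permutation p = 0.00796; rho -0.242, permutation p = 0.00269; r = -0.211 without 2), OTC with the title number (r = -0.185, permutation p = 0.0234; rho -0.226, permutation p = 0.00594; r = -0.185 without 2), ARG1 with the hepatocyte mean (r = 0.197, permutation p = 0.0167; rho 0.172, permutation p = 0.0369; r = 0.151 without 2) and ARG1 with the array median (r = 0.161, permutation p = 0.0495; rho 0.127, permutation p = 0.122; r = 0.104 without 2). Of 25 such relations 14 had an unadjusted permutation p of r under 0.05. With block means removed the 3 values for the array median were 0.569, 0.344 and -0.295, those for GAPDH 0.32 and -0.33, and those for the hepatocyte mean 0.289 for ASS1, 0.196 for CPS1 and 0.253 for OTC, while those for the title number turned to 0.15 for CPS1 and 0.16 for ASS1. For the 4 weaker relations they were -0.152, -0.00297, 0.149 and 0.0978 in the order given.

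Given the array median and the GAPDH and actin differences together, CPS1 and ASL were called (partial r = 0.379, adjusted p = 0.000287 by limma) and OTC and ASL were not (partial r = -0.133, adjusted p = 0.398). Given the first 5 principal components of all other probe sets, which left 5.94% of probe sets called with CPS1, 2.62% with OTC, 12% with ASS1, 6.68% with ASL and 6.73% with ARG1, the 4 enzymes CPS1, ASS1, ASL and ARG1 were called in all their 6 pairs, and OTC in none of its 4. Partial r was then 0.562 for CPS1 and ARG1, 0.495 for CPS1 and ASS1, 0.491 for CPS1 and ASL, 0.464 for ASS1 and ASL, 0.334 for ASL and ARG1 and 0.298 for ASS1 and ARG1. It fell to 0.133 for CPS1 and OTC (adjusted p = 0.42) and turned to 0.102 for OTC and ASL (adjusted p = 0.568). The 5 components held 81.6% of the variance of OTC and 51.7% of that of CPS1, against 28.4% for ASS1, 20.8% for ARG1 and 14.5% for ASL.

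**Figure D3:**
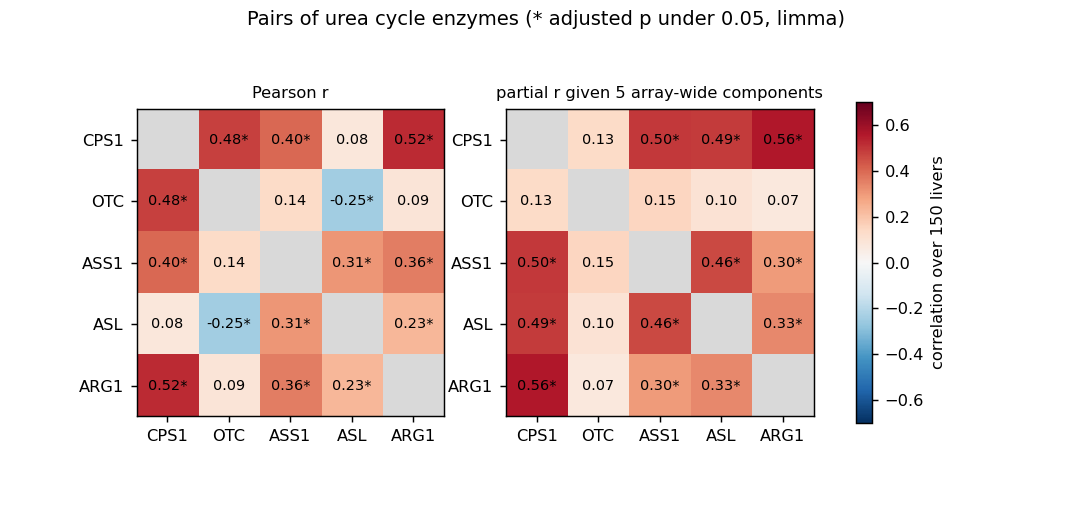
Pearson r between the 5 enzymes over 150 livers (left) and partial r given 5 principal components of all other probe sets (right), with asterisks at an adjusted p under 0.05 by limma. OTC has a called relation to CPS1 (0.48) and ASL (-0.25) on the left and none on the right, where CPS1, ASS1, ASL and ARG1 are all positive with each other.

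The genes most like each enzyme across the 150 livers differed from one enzyme to the next. For CPS1 they were PAPSS2, which makes the sulfate donor of sulfation (r = 0.743), the coagulation factor F9 (0.733), LOC100624077 (0.706), protein S, PROS1 (0.691), and the nuclear protein NUCKS1 (0.677). Most opposite to CPS1 were C5H12orf57 (-0.659), the vesicle trafficking subunit TRAPPC3 (-0.634) and FUNDC2 (-0.63). For OTC the highest were PDHB, a subunit of mitochondrial pyruvate dehydrogenase (0.846), urate oxidase, UOX (0.835), WASHC5 of the WASH complex (0.811), the ubiquitin ligase RNF130 (0.799) and glyoxalase 1, GLO1 (0.797). Most opposite to OTC were TUSC2 (-0.694), the retromer subunit VPS26B (-0.68) and the mitochondrial ribosomal protein MRPS2 (-0.676). Given the 5 components r was 0.344 for PDHB and OTC and 0.656 for PAPSS2 and CPS1.

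ASS1 had RRAD, a small GTPase, as its closest gene (r = 0.792, and 0.735 given the 5 components). It was followed by GAMT, the methyltransferase that completes creatine synthesis (0.613), FBP1, the fructose bisphosphatase of gluconeogenesis (0.599), the chromatin reader DPF2 (0.577) and the transcription factor MECOM (0.555). Most opposite were the proteasome subunit SEM1 (-0.447), the oligoribonuclease REXO2 (-0.424) and the lipid droplet enzyme PNPLA3 (-0.419). The 5 genes closest to ASL included 3 enzymes of amino acid metabolism, namely GNMT, glycine methyltransferase of the methionine cycle (r = 0.704, and 0.711 given the 5 components), GOT1, the cytosolic aspartate aminotransferase (0.656), and FAH, the last enzyme of tyrosine breakdown (0.624). The phosphatase LHPP (0.633), which lay between GOT1 and FAH, and DCAF11 (0.595) completed the 5. Most opposite were ACSL4, an acyl-CoA synthetase for arachidonic acid (-0.465), UGT2B31 (-0.436) and the histone demethylase KDM6A (-0.435).

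ARG1 was closest to NDFIP2, an adaptor of ubiquitin ligases (r = 0.623), CTH, which releases cysteine in transsulfuration (0.6), the lipid phosphatase MTMR7 (0.562), the growth factor receptor EGFR (0.543) and the sulfotransferase SULT2A1 (0.541). Most opposite were the DNA glycosylase NEIL1 (-0.506), FDFT1, squalene synthase of cholesterol synthesis (-0.487), and SHROOM3 (-0.474). All 40 of these relations passed limma over all probe sets, as their choice by r fixed, and the largest adjusted p among them was 1.2e-05.

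Genes that supply nitrogen to the cycle or use its intermediates were read from a list of 26, of which 13 were measured. ASL had 6 of them higher and 2 lower with its level, where 8.5% and 13.2% of all probe sets were called higher and lower by limma. The 6 were GOT1, which makes the aspartate that ASS1 consumes (r = 0.656), the mitochondrial arginase ARG2 (0.552), alanine aminotransferase GPT (0.437), serine dehydratase SDS (0.324), ALDH4A1 of proline breakdown (0.29) and SIRT5, a mitochondrial deacylase (0.282). The 2 lower were ALDH18A1, which makes the precursor of proline and ornithine (-0.214), and glutamine synthetase GLUL (-0.218). For ARG1, 5 were higher and 0 lower, against a background of 5.92% and 3.13%. They were ARG2 (0.465), ornithine aminotransferase OAT (0.444), SDS (0.379), the polyamine enzyme ODC1 (0.312) and GOT1 (0.301).

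With ASS1, 4 of the 13 were higher, against a background of 9.39%, and 1 was lower, against 4.17%. Those higher were ARG2 (r = 0.368), OAT (0.261), SDS (0.239) and GOT1 (0.232), and the 1 lower was GLUL (-0.29). CPS1 had 2 higher, OAT (0.397) and ARG2 (0.224), where the background was 32%. It had 4 lower, ALDH18A1 (-0.219), asparagine synthetase ASNS (-0.266), SIRT5 (-0.281) and agmatinase AGMAT (-0.297), where the background was 21%. OTC had 2 higher, OAT (0.377) and the mitochondrial aspartate aminotransferase GOT2 (0.236), and 2 lower, ALDH18A1 (-0.299) and ODC1 (-0.3), where the background was 25.6% and 19.9%. OAT was called with CPS1, OTC, ASS1 and ARG1 and had an r of 0.141 with ASL (adjusted p = 0.207). ARG2 was called with all except OTC, where r was 0.0635 (adjusted p = 0.556).

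Amino acid breakdown, with 15 of 27 listed genes measured, went with ASL in 10 genes and against it in 1. Of all probe sets 8.5% were called higher with ASL and 13.2% lower. The median r of the list with ASL was 0.329, where the median over all probe sets was -0.0303. Beside GNMT and FAH, the 10 were HPD of tyrosine breakdown (r = 0.467), CTH (0.436), GSTZ1, also of tyrosine breakdown (0.371), AMT of glycine cleavage (0.338), IVD of leucine breakdown (0.329), the branched-chain dehydrogenase subunits BCKDHA (0.329) and BCKDHB (0.328), and the methionine adenosyltransferase MAT1A (0.271). Kynureninase, KYNU, of tryptophan breakdown, was the 1 lower (-0.365). ASS1 had 7 of the 15 higher and 0 lower, with HPD (0.492), GNMT (0.477) and MAT1A (0.389) at the top. The background for ASS1 was 9.39% higher and 4.17% lower. The median r was 0.172 with ASS1, where that of all probe sets was 0.00491. ARG1 had 5 higher and 0 lower, with CTH (0.6), GNMT (0.468) and the tyrosine aminotransferase TAT (0.395) at the top. The background for ARG1 was 5.92% higher and 3.13% lower. The median r was 0.101 with ARG1, where that of all probe sets was 0.0191.

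CPS1 had 9 of the 15 higher and 3 lower, against 32% and 21% of all probe sets, so the share lower was near the background. CTH (r = 0.672), DBT, another branched-chain subunit (0.549), and the cysteine dioxygenase CDO1 (0.463) led the 9, and AMT (-0.256), BCKDHA (-0.258) and GSTZ1 (-0.295) were lower. OTC had 6 higher, led by KYNU (0.598), DBT (0.565) and BCKDHB (0.465), and 1 lower, BCKDHA (-0.283). The background for OTC was 25.6% higher and 19.9% lower. BCKDHB was called with each of the 5 enzymes, with r from 0.282 for ARG1 to 0.465 for OTC. CTH was called with each as well, with r from 0.3 for OTC to 0.672 for CPS1. KYNU was higher with OTC and CPS1 (0.354) and lower with ASL. Given the 5 components, 10 of the 15 were called higher with CPS1, 10 with ASL, 7 with ASS1, 5 with ARG1 and 4 with OTC, and the background of higher calls was 3.87%, 3.89%, 8.83%, 4.45% and 1.3% in that order.

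**Figure D4:**
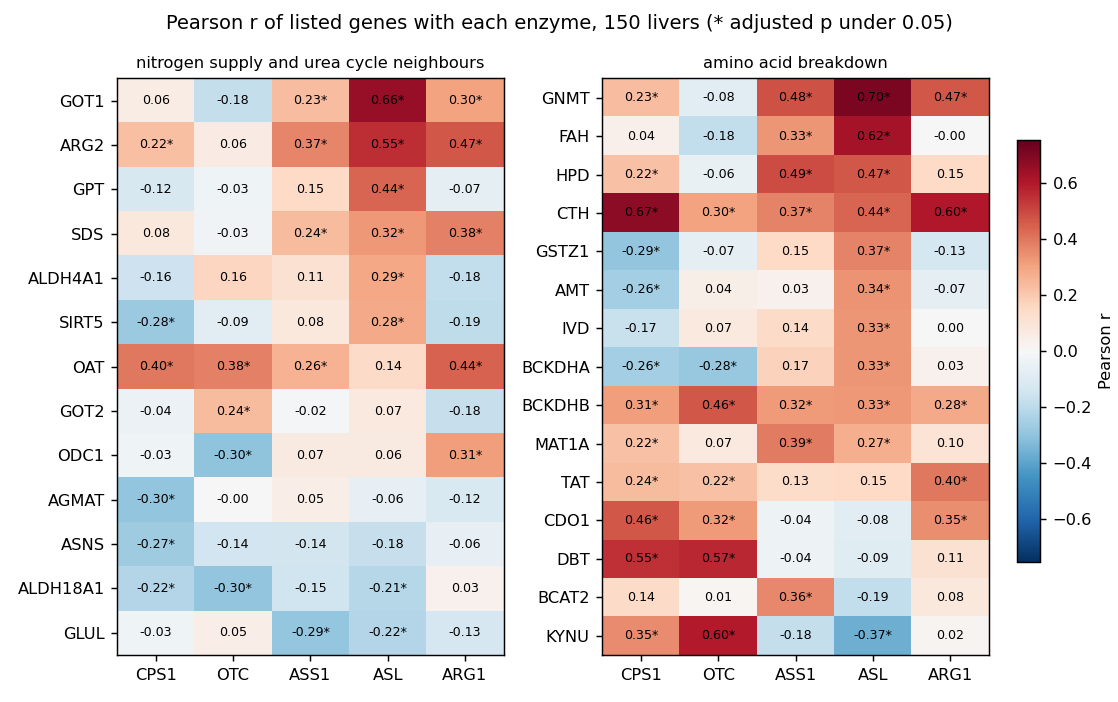
Pearson r of 13 genes of nitrogen supply (left) and 15 genes of amino acid breakdown (right) with each enzyme over 150 livers, ordered by r with ASL, with asterisks at an adjusted p under 0.05 by limma. The ASL column is reddest for GOT1 (0.66), GNMT (0.70) and FAH (0.62), while KYNU is positive with OTC (0.60) and negative with ASL (-0.37).

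Of 12 measured regulators of these genes, PPARGC1A, a coactivator of the fasting response, was higher with CPS1 (r = 0.565) and OTC (0.545). The glucocorticoid receptor NR3C1 was higher with CPS1 (0.412) and OTC (0.363) and lower with ASL (-0.304). With CPS1 the factors FOXA2 (0.277), FOXO1 (0.225) and KLF15 (0.19) were also higher, and the stress factor ATF4 (-0.213) and the mitochondrial deacetylase SIRT3 (-0.36) were lower. With OTC, SIRT3 (-0.194) and CREB1 (-0.27) were lower. With ASS1, PPARA (0.356) and CEBPA (0.235) were higher and ATF4 (-0.225) was lower, and with ARG1, CEBPB (0.299) and KLF15 (0.27) were higher. The 5 of 12 higher and 2 lower with CPS1 stood against 32% and 21% of all probe sets, and the 2 higher and 2 lower with OTC against 25.6% and 19.9%, so the shares for OTC were at or below the background. Given the 5 components, 0 of 12 were higher with CPS1, OTC or ARG1 by limma, where PPARGC1A had a partial r of 0.148 with CPS1 and 0.22 with OTC. The share of all probe sets called higher was then only 3.87% for CPS1, 1.3% for OTC and 4.45% for ARG1, with 8.83% for ASS1 and 3.89% for ASL. Called higher were then CEBPA (0.359) and PPARGC1A (0.33) with ASS1 and PPARGC1A (0.267) with ASL, and ATF4 was then lower with CPS1 (-0.28), ASS1 (-0.408), ASL (-0.291) and ARG1 (-0.259).

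Among 10 genes of the fasting and glucocorticoid responses, 4 were higher with ARG1, namely IGFBP1 (r = 0.398), the fatty acid importer CPT1A (0.286), FKBP5 (0.261) and PCK1 of gluconeogenesis (0.243). With ASS1, PCK2 (0.395), the mitochondrial form of PCK1, and PCK1 (0.32) were higher. ASL had PCK2 higher (0.425) and FKBP5 lower (-0.246). CPS1 had FKBP5 higher (0.473) and ANGPTL4 lower (-0.275). OTC had FKBP5 (0.313), TSC22D3 (0.263) and DBP (0.196) higher and the lipid droplet protein PLIN2 lower (-0.335). The 4 of 10 with ARG1 stood against 5.92% of all probe sets, the 2 with ASS1 against 9.39%, the 3 with OTC against 25.6%, the 1 with CPS1 against 32% and the 1 with ASL against 8.5%. Given the 5 components, the numbers higher were 1 with ARG1 (IGFBP1, partial r 0.293), 2 with ASS1, 0 with OTC, 0 with CPS1 and 1 with ASL by limma. The share of all probe sets called higher in that fit was 4.45%, 8.83%, 1.3%, 3.87% and 3.89% in the same order. FKBP5 then had a partial r of 0.0957 with CPS1.

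Few zone genes were measured. Of the 5 measured pericentral genes CPS1 had 3 higher, the glutamate transporter SLC1A2 (r = 0.566), OAT and CYP2E1 (0.357), and 1 lower, the ammonium transporter RHBG (-0.367). OTC had the same 3 higher, with SLC1A2 at 0.313 and CYP2E1 at 0.294, and RHBG lower (-0.189). The background was 32% higher and 21% lower for CPS1 and 25.6% and 19.9% for OTC. Of the 3 periportal genes 1 was higher with CPS1 and with OTC, the cadherin CDH1 (0.235 and 0.457), a share near the background. SDS and PCK1, periportal as well, were higher with ASS1 and ARG1, while ASL had SDS higher and CDH1 lower (-0.287). Of the 5 pericentral genes ASS1 had 2 higher, CYP2E1 (0.374) and OAT (0.261), and 1 lower, GLUL (-0.29). ARG1 also had 2 of them higher and 1 lower, and ASL had 0 higher and 1 lower. The background was 9.39% higher and 4.17% lower for ASS1, 5.92% and 3.13% for ARG1 and 8.5% and 13.2% for ASL. SDS, OAT and GLUL are also in the nitrogen list.

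Hepatocyte markers were higher in 5 of 11 with CPS1, 5 with OTC, 4 with ASS1, 2 with ARG1 and 0 with ASL, and lower in 1, 2, 0, 0 and 1 of them in the same order. The share of all probe sets called higher was 32%, 25.6%, 9.39%, 5.92% and 8.5% in that order, and lower 21%, 19.9%, 4.17%, 3.13% and 13.2%, and the counts of the cell lists below are to be read against these. Among the markers of other cells, the list of 6 stellate cell and fibroblast genes had 4 higher and 1 lower with OTC and 2 higher and 1 lower with CPS1. Of 5 Kupffer cell and macrophage markers 3 were lower and 1 higher with CPS1, 2 were higher with ASS1 and 2 with ASL. Of 3 T and NK cell markers 2 were lower with CPS1 and 2 with OTC. Of the 2 red blood cell markers, the haemoglobin chain HBB was higher with CPS1 (r = 0.647) and OTC (0.437) and lower with ASL (-0.247), while ALAS2 was lower with CPS1 (-0.235) and had an r of -0.0177 with OTC. The part of red blood cells in these relations was not tested. The mean signal of the hepatocyte list ran from 13.17 to 13.51 over the livers, that of the Kupffer cell list from 8.28 to 9.74 and that of the stellate list from 7.11 to 8.25. Given the hepatocyte mean, 7 pairs of enzymes were called, as before.

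The comparison with fat area asked whether the enzymes differed between fatter and leaner pigs. All 5 slopes were positive, and none passed limma over all probe sets, where 0.125% were called. At an unadjusted p under 0.05, 2 of the 5 were counted, ASL and ASS1, and 7.08% of all probe sets. The median slope of the 5 was 0.049 in log2 units for 1 SD of fat area, and that of all probe sets 0.00025, with 50.5% of them positive.

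ASL had the steepest slope of the 5, 0.11 per SD of fat area (SE 0.03, 95% interval 0.048 to 0.17, p = 0.000491, adjusted p = 0.144 by limma, n = 150). In the 30 pigs with the largest fat area (mean 20.2 cm2) ASL ran from 10.09 through a median of 10.52 to 11.70, against 9.34 through 10.20 to 10.96 in the 30 with the smallest (mean 11.3 cm2). The means were 10.56 (SD 0.33) and 10.15 (SD 0.39), a fold of 1.34. The 2 sets of pigs overlapped over most of their ranges. Its correlation with fat area came to r = 0.279 (permutation p = 0.00053) and rho = 0.269 (permutation p = 0.00108). The r was 0.29 when 2 pigs of extreme fat area were left out, 0.262 with block means removed, and positive in 9 of the 10 blocks.

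For ASS1 the slope was 0.061 (SE 0.021, 95% interval 0.019 to 0.10, p = 0.00421, adjusted p = 0.332 by limma). ASS1 ran from 12.88 through 13.31 to 13.63 in the 30 fattest pigs, against 12.60 through 13.20 to 13.42 in the 30 leanest, with means of 13.29 (SD 0.19) and 13.11 (SD 0.24) and a fold of 1.13. With fat area ASS1 had an r of 0.231 (permutation p = 0.00435) and a rho of 0.225 (permutation p = 0.00576), with an r of 0.212 without 2 pigs and 0.246 with block means removed. Given 5 principal components both enzymes were called, at a slope of 0.13 for ASL (adjusted p = 0.0119) and 0.077 for ASS1 (adjusted p = 0.0171), in a fit that called 0.425% of all probe sets. With the mean signal of 2 Y-linked probe sets in the model instead, neither was called by limma, and 1 of all probe sets was. The slopes were then 0.079 for ASL (adjusted p = 0.546) and 0.063 for ASS1 (adjusted p = 0.431).

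ARG1 (slope 0.045, SE 0.028, adjusted p = 0.814), OTC (0.049, SE 0.039, adjusted p = 0.892) and CPS1 (0.038, SE 0.025, adjusted p = 0.834) had intervals that included 0. Their r with fat area was 0.128 (permutation p = 0.118; rho 0.116, permutation p = 0.153), 0.102 (permutation p = 0.218; rho 0.0669, permutation p = 0.417) and 0.123 (permutation p = 0.134; rho 0.146, permutation p = 0.0745) in the same order. Without 2 pigs these were 0.124, 0.085 and 0.134, and with block means removed 0.149, 0.0983 and 0.137. The folds between the 30 fattest and the 30 leanest pigs were between 1.07 for CPS1 and 1.12 for ARG1. The upper ends of their intervals were 0.10, 0.13 and 0.088 per SD. With the mean signal of 2 Y-linked probe sets in the model, the slope was 0.013 for ARG1 and 0.011 for CPS1, and that of OTC was 0.062.

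With drip loss 4 of the 5 slopes were positive and 0 of 5 were called by limma, which called 0% of all probe sets. Of all probe sets 56.5% had a positive slope on drip loss. Their median slope was 0.0043, and that of the 5 enzymes 0.053. At an unadjusted p under 0.05 there was 1 of the 5, CPS1, and 11% of all probe sets. The CPS1 slope was 0.053 per SD of drip loss (SE 0.025, p = 0.0362, adjusted p = 0.43). CPS1 ran from 11.88 through 12.50 to 12.93 in the 30 pigs of highest drip loss (mean 8.52%), against 11.65 through 12.34 to 12.83 in the 30 of lowest (mean 2.58%), a fold of 1.16. These ranges overlapped almost fully. Its r was 0.17 (permutation p = 0.0381; rho 0.164, permutation p = 0.0453), 0.166 without 2 pigs and 0.124 with block means removed. The slope was 0.029 with the array median in the model and 0.014 with 5 principal components.

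The other drip loss slopes were 0.07 for OTC (SE 0.039, adjusted p = 0.498), 0.053 for ARG1 (SE 0.028, adjusted p = 0.474), 0.031 for ASS1 (SE 0.021, adjusted p = 0.575) and -0.035 for ASL (SE 0.032, adjusted p = 0.668). The r values were 0.143 for OTC (permutation p = 0.0802; rho 0.141, permutation p = 0.0838; 0.145 without 2 pigs), 0.152 for ARG1 (permutation p = 0.0639; rho 0.138, permutation p = 0.0923; 0.149 without 2), 0.117 for ASS1 (permutation p = 0.155; rho 0.121, permutation p = 0.14; 0.127 without 2) and -0.0906 for ASL (permutation p = 0.271; rho -0.0698, permutation p = 0.396; -0.059 without 2). With block means removed they were 0.114, 0.176, 0.0629 and -0.0574. In all, 10 relations with the traits were computed.

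With both traits in 1 model, ASL had a slope of 0.11 on fat area and -0.027 on drip loss, a difference of 0.13 (SE 0.041, p = 0.00162, adjusted p = 0.338 by limma over all probe sets, of which 0.00833% were called), so the 2 slopes were not shown to differ. The differences for the other 4 were between -0.019 and 0.028, with adjusted p values of 0.843 or more.

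**Figure D5:**
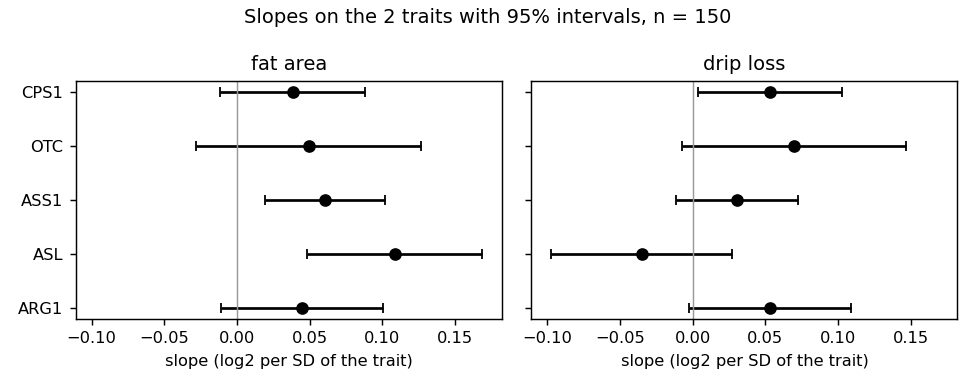
Slope of each enzyme on fat area (left) and on drip loss (right) in log2 units per SD of the trait, with 95% intervals from limma, n = 150. The intervals of ASS1 (0.019 to 0.10) and ASL (0.048 to 0.17) lie above 0 for fat area, and ASL is the only 1 of the 5 with a negative slope on drip loss (-0.035).

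Beside the cycle itself, 1 of 13 measured genes of nitrogen supply was called higher with fat area (GPT), against 0.0792% of all probe sets, and 2 lower (ASNS and ALDH18A1), against 0.0458%, and 1 of 15 of amino acid breakdown was higher (BCKDHB). Given the Y-linked mean these 4 were no longer called by limma, with adjusted p values of 0.127 for GPT, 0.326 for ASNS, 0.154 for ALDH18A1 and 0.237 for BCKDHB. Their slopes kept their sign and were then 0.143, -0.135, -0.147 and 0.0821 in that order, against 0.142, -0.172, -0.151 and 0.101 without it. GOT1 and GNMT, the genes nearest to ASL in these lists, had slopes of 0.073 (SE 0.03, adjusted p = 0.543) and 0.13 (SE 0.037, adjusted p = 0.139) and were not called. The median slopes were 0.035 for nitrogen supply and 0.08 for amino acid breakdown, with 9 of 13 and 14 of 15 positive. Of the regulators and of the pericentral and periportal genes 0 were called by limma with fat area. ATF4 had the smallest p among the regulators (slope -0.088, SE 0.027, p = 0.00175, adjusted p = 0.244), and SDS among the zone genes (slope 0.36, SE 0.12, p = 0.00335, adjusted p = 0.305). Of the fasting and glucocorticoid genes 1 was called by limma, DBP, a clock-controlled factor (slope 0.22, SE 0.05, adjusted p = 0.0231). It was not called given the Y-linked mean (slope 0.21, adjusted p = 0.214) or 5 components (slope 0.14, adjusted p = 0.0902). With drip loss 0 genes of any list were called, and the smallest adjusted p over all probe sets was 0.215. Of the cell type lists 0 markers were called with either trait, and the hepatocyte mean signal went with fat area at r = 0.155 and with drip loss at 0.0708, as a description.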

How the data were processed

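Each of 150 liver RNA samples was run on its own Affymetrix Porcine Genome Array. The deposited values are log2 signals per probe set, read as log2 from their range; the submitters' processing notes name GCOS 1.1.1, and how probes were summarised and arrays normalized is not given in these sources. The values were used as deposited. Precision depends on the number of arrays.

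Of 24123 rows, 124 Affymetrix controls were left out. Symbols came from the array annotation, checked by Entrez ID against a RefSeq table, which changed 0; 10069 probe sets had 1 symbol, 198 several and 13732 none. A gene with several probe sets was represented by its brightest.

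Slopes per SD of each trait, their difference (both traits in 1 model), and relations to each enzyme were fitted with limma 3.58.1 (trended eBayes, otherwise no covariates) in R 4.3.3, two-sided, with Benjamini-Hochberg adjustment over all probe sets. The trait fit was also run on simulated data. The simulated noise was independent between probe sets, so the fit was not tested under the shared variation of these arrays. Tails are the 30 pigs at each end of a trait. The principal components hold all probe sets (for pairs, all but the enzymes). All members were named, with the 5 genes most like and 3 most unlike each enzyme and called genes of the lists. Members and lists were chosen with earlier results of these data known. Promoter motifs were planned and are not analysed here.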

Additional observations from a re-analysis of the deposited data

How the results depend on the processing

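Each slope was refitted under 17 alternatives and each pair of enzymes under 12, the last of each, leaving out livers 68 and 70, chosen after seeing the data. They comprised quantile normalization, filters on dim (mean over 6) or flat (SD over 0.25) probe sets, other eBayes settings, normal scores or ranks, fewer arrays or pigs, and covariates. The direction of every slope held under all 17, and no enzyme was called with either trait except ASL and ASS1 with fat area given 5 principal components, which made the count 2 instead of 0. Apart from normal scores, which have another unit, the ASL slope on fat area lay between 0.079 given the Y-linked mean (adjusted p = 0.546) and 0.13 with 5 components, and without the 13 arrays that stand apart its adjusted p was 0.0553. Given the Y-linked mean the fat area slopes of CPS1 and ARG1 were 0.011 and 0.013, against 0.038 and 0.045. The number of all probe sets called with fat area was 1 given the Y-linked mean and 0.425% of them with 5 components, against 30 (0.125%), and with drip loss it was 0 under each. Of 5 genes of the other lists called with fat area 0 were called given the Y-linked mean, though each kept the sign of its slope.

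Between 6 and 7 pairs were called under every setting, and 4 of the 10 were called under all, CPS1 with ARG1, CPS1 with ASS1, ASS1 with ASL and ASS1 with ARG1. CPS1 and OTC was lost with 5 components only. OTC and ASL turned to 0.102 with 5 components, and OTC and ARG1 to -0.00882 given the array median and the GAPDH and actin differences. ASL and ARG1 was called in 5 of 12, and r lay between 0.173 and 0.334. The count of listed genes called was 19 for CPS1 (53 without covariates), 6 for OTC (43) and 14 for ARG1 (24) with 5 components, and 19 for ASS1 (29) with quantile normalization. Without covariates 53% of all probe sets were called with CPS1, 45.5% with OTC, 9.05% with ARG1 and 13.6% with ASS1. With 5 components the shares of all probe sets were 5.94% for CPS1, 2.62% for OTC and 6.73% for ARG1. The listed genes are those of all lists other than the members, each counted once. For ASS1 with quantile normalization the share of all probe sets is not given here, so its count has no background. The cause of these shifts was not tested. No paired analysis was possible because there is a single group.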

Other observations

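Probe sets without a symbol were also close to the enzymes. The unnamed probe set of highest r had, for CPS1, a larger r than any named gene (r = 0.77, rho 0.714, adjusted p = 2.07e-26 by limma, partial r = 0.743 given 5 components). The r was lower than that of the closest named gene for ASS1 (r = 0.732, rho 0.732, partial r = 0.619), for ASL (r = 0.609, partial r = 0.582), for ARG1 (r = 0.56, partial r = 0.508) and for OTC (r = 0.811, partial r = 0.393). Partial r was lower as well except for OTC, where the closest named gene, PDHB, had 0.344. These were chosen after their values were seen.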
